A study of Mus musculus with 51 samples.

Results

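The F-box genes encode the substrate receptors of SCF ubiquitin ligases, and their RNA was followed across 51 mouse RNA-seq libraries in which UBA1, the E1 enzyme at the head of the ubiquitin cascade, was depleted, overexpressed or inhibited. Members were the genes whose symbol is Fbxl, Fbxo or Fbxw followed by a number only and that reached 10 counts in at least 2 of the 51 libraries. Of 40077 genes, 67 were members, comprising 17 Fbxl, 34 Fbxo and 16 Fbxw genes. Another 10 genes with such a symbol stayed under the count minimum, namely Fbxo27, Fbxo39, Fbxw10, Fbxw13, Fbxw16, Fbxw19, Fbxw20, Fbxw22, Fbxw23 and Fbxw27. Just outside the rule, the second-highest count was 8 for Fbxw10 and 7 for Fbxw23, and just inside it was 12 for Fbxl21 and 19 for Fbxo47. 1 Fbxl gene is left out by the rule and is not reported here.

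An SCF ligase joins SKP1, the scaffold CUL1, a RING protein that binds the E2 enzyme, and 1 of many exchangeable F-box proteins. The F-box domain holds SKP1, and the rest of the protein recognises the substrate, through leucine-rich repeats in the Fbxl class, WD40 repeats in the Fbxw class, and other domains in the Fbxo class. UBA1 activates ubiquitin for these ligases, and the small molecule TAK-243 inhibits UBA1. F-box proteins are best known for timing the destruction of cyclins, transcription factors and signalling proteins in dividing and tumor cells.

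There were 2 mouse cancer models. Myc-CaP is a prostate cancer line from the FVB strain, and B16-BL6 is a melanoma line from the C57BL/6 strain. B16-BL6 tumors carried a control guide (sgNC, n = 3) or were depleted of Uba1 (sgUba1, n = 4). Myc-CaP tumors carried sgNC (n = 3) or sgUba1 (n = 7), an empty vector (EV, n = 3) or a Uba1 overexpression vector (Uba1 OE, n = 4), or were wild type and treated with vehicle (n = 6) or TAK-243 (n = 5). Cultured Myc-CaP cells formed 2 experiments of 4 groups with n = 2 in each. In 1 experiment NC or sgUba1 cells received PBS or IFN-γ, an inflammatory cytokine. In the other, wild-type cells were left untreated (control) or received 50 nM TAK-243, IFN-γ, or both. The depleted and control lines were sublines grown from single cells, the overexpressing line was a drug-selected pool with a CMV-driven lentiviral vector, and tumors grew under the skin on both flanks of immunocompetent mice, so that 2 tumors may have shared a mouse. The age and sex of individual animals are not in the labels used here. The study's methods state 1 age range for all mice, male FVB hosts, and female C57BL/6 hosts except for a line not used here. Nothing in the labels says which libraries came from separate cultures or mice, so p-values measure only the spread between these libraries.

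Tumor libraries held between 8651963 and 35693092 counts and cell libraries between 12860844 and 38032284. The 7 B16-BL6 libraries carried melanocyte RNA, with Dct, a melanin synthesis enzyme, between 5180 and 6187 CPM (counts scaled to library size by TMM factors within each experiment). The 44 Myc-CaP libraries are labelled epithelial, and the sum over 5 genes of a prostate epithelial marker list was 49.2 to 342 CPM in their tumors and 18.1 to 26.9 CPM in their cells, against 1.60 to 2.25 CPM in B16-BL6. Most of the Myc-CaP sum came from Krt8 and Hoxb13. Of those 5 genes, the adhesion gene Epcam did not pass 0.369 CPM in any Myc-CaP library, and Krt18 did not pass 1.88 CPM. Cdh1 went the other way, at 1.52 to 2.20 CPM in B16-BL6 tumors. That was above most Myc-CaP libraries, which ran from 0.0624 to 2.78 CPM. Uba1 RNA was lower in all 4 B16-BL6 sgUba1 tumors, at 208, 220, 228 and 247 CPM against 410, 455 and 414 CPM in sgNC tumors. In Myc-CaP sgUba1 tumors 1 to 3 it was 197, 202 and 210 CPM against 320, 325 and 337 CPM in sgNC tumors, whereas in sgUba1 tumors 4 to 7 it was 373, 361, 368 and 383 CPM, above every control. Results for Myc-CaP sgUba1 tumors are therefore given with and without those 4 libraries, and the direction of their depletion rests on their labels. Uba1 OE tumors held 631 to 747 CPM against 278 to 310 CPM with EV. In cells, Uba1 was 295 and 283 CPM in sgUba1 against 533 and 526 CPM in NC without IFN-γ, and 269 and 275 CPM against 585 and 600 CPM with it. TAK-243 acts on the protein, and Uba1 RNA was 594 and 565 CPM with it against 452 and 445 CPM in control cells (0.37 on the log2 scale, edgeR quasi-likelihood adjusted p = 5.68e-12).

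The strongest movement of F-box RNAs was seen in cells treated with TAK-243. Of 50 members tested in those cells, 24 fell and 15 rose (edgeR quasi-likelihood test, Benjamini-Hochberg adjusted p under 0.05), or 78% in either direction, 48% lower and 30% higher. Over all 14551 genes tested, 66.3% were called, 34% lower and 32.3% higher. The median log2 fold change of the members was -0.23 against 0.03 over all genes, and the median absolute change was 0.550 against 0.527. The 17 members not tested were too low in these libraries.

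Before their values, the upstream windows of 4 of these genes are shown. They belong to the 2 falls (Fbxl14 and Fbxo31) and 2 rises (Fbxo11 and Fbxo30) with the smallest adjusted p among members with a RefSeq window. All 4 windows are GC-rich. Each is the 250 bases before the RefSeq start on its own strand (GRCm38.p6), written 5′ to 3′. Gene positions given here are from GENCODE, whose starts of Fbxo30 and Fbxo11 differ from those of RefSeq, so that the Fbxo30 window lies within its GENCODE span. Capitals mark GGGCGG, the GC box, and CCAAT, the CCAAT box, found on either strand, so that CCGCCC and ATTGG are the same motifs read on the other strand. The windows are chr6:119479418-119479667 on the plus strand for Fbxl14, chr8:121578807-121579056 on the minus strand for Fbxo31, chr17:88066046-88066295 on the minus strand for Fbxo11, and chr10:11281337-11281586 on the plus strand for Fbxo30.
Fbxl14: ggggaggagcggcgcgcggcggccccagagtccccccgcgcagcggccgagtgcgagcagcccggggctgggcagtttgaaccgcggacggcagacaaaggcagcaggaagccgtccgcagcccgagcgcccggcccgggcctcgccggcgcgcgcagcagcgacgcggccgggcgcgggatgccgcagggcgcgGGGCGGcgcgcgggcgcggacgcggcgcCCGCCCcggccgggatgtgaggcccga
Fbxo31: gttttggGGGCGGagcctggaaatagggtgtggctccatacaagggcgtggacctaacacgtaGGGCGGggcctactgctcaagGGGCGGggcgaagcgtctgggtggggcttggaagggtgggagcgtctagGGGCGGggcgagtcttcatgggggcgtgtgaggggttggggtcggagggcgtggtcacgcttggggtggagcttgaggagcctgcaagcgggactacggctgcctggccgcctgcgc
Fbxo11: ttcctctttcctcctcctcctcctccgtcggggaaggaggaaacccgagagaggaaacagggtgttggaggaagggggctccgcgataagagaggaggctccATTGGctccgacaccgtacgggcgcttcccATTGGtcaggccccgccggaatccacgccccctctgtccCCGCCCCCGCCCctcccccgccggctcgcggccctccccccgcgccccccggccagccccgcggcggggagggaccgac
Fbxo30: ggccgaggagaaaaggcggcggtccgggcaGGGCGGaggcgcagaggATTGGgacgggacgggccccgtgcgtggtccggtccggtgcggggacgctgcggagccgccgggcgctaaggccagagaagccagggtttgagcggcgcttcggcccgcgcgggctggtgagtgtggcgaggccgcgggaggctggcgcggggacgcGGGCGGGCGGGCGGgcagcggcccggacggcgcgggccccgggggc
A GC box was in 60.8% of the 51 members with a RefSeq window (31 of 51), against 33% of all 27024 windows of this length. A CCAAT box was in 19.6% of the members (10 of 51) against 34.5% of all windows. Among the members that rose with TAK-243 and had a window, 8 of 10 held a GC box and 4 of 10 a CCAAT box. Among those that fell, the counts were 12 of 21 and 5 of 21. The median ratio of observed to expected CpG was 0.672 over the members and 0.379 over all windows, and it was 0.812 for the members that rose and 0.705 for those that fell. The E-box CACGTG was in 3.92% of the members' windows, against 6.04% of all windows. The full cAMP response element, TGACGTCA, was in 1.96% against 1.6%. The shares for an ETS-type site, spelled CCGGAAG, were 13.7% and 7.07%. Those for the STAT-type site TTCNNNGAA were 7.84% and 7.14%. All windows were taken with no filter on expression or gene type, whereas the members are protein-coding genes that reached the count minimum. The 2 sets are therefore unlike in more than family. These are descriptions of letters in a window and were not tested.

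Among the receptors of cell cycle regulators and oncoproteins, 9 of 10 members were tested with TAK-243. In this group 3 rose, Fbxw7, Fbxw11 and Fbxo11, and 6 fell, Fbxl14, Fbxo31, Fbxo28, Fbxo5, Fbxo4 and Fbxo45. Fbxl14 (chr6:119479668-119482630, plus strand) encodes a receptor for the epithelial-mesenchymal transition factor SNAI1. Its RNA was 58.4 and 60.4 CPM in control cells and 21.6 and 19.5 CPM with TAK-243. It was lower in both treated libraries, by -1.52 ± 0.08 on the log2 scale (SE, edgeR quasi-likelihood adjusted p = 2.69e-16), or 2.88-fold. Fbxo31 (chr8:121549440-121578806, minus strand), a receptor for cyclin D1, fell from 25.98 and 29.4 CPM to 7.61 and 6.66 CPM, a change of -1.95 ± 0.12 (adjusted p = 7.87e-15). Fbxo5 encodes EMI1, which inhibits the APC/C ligase rather than serving only as a receptor. It was 39.1 and 38.3 CPM in control cells and 20.7 and 21.2 CPM with TAK-243 (-0.89 ± 0.09, adjusted p = 2.04e-10). Fbxo28, which ubiquitylates MYC, and Fbxo4, another cyclin D1 receptor, fell by 0.96 and 0.56 on the log2 scale (adjusted p = 7.22e-11 and 0.00029).

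In the opposite direction, Fbxo11 (chr17:87990859-88065291, minus strand), a receptor for the B cell oncoprotein BCL6, was 62.8 and 59.8 CPM in control cells and 108 and 105 CPM with TAK-243. The change was 0.80 ± 0.05 on the log2 scale (edgeR quasi-likelihood adjusted p = 1.54e-14), or 1.74-fold higher. Fbxw7, the receptor for MYC, cyclin E and Notch, was 32.9 and 35.8 CPM without and 53.5 and 56.8 CPM with the inhibitor (0.68 ± 0.08, adjusted p = 5.93e-09). Fbxw11 encodes beta-TrCP2, a receptor for beta-catenin and the NF-kB inhibitor IkB, and rose by 0.45 ± 0.04 (adjusted p = 1.19e-11). The control and treated values of these 3 genes did not overlap.

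Of the growth-signalling receptors, 6 of 7 tested members fell and 1 rose, with a median log2 fold change of -1.22. Fbxw4 (chr19:45578254-45660312, minus strand), the dactylin gene known from the mouse limb mutant dactylaplasia, was 17.3 and 17.7 CPM in control cells and 5.09 and 4.41 CPM with TAK-243 (-1.87 ± 0.13, edgeR quasi-likelihood adjusted p = 2.81e-13). Fbxo9 (chr9:78081499-78109065, minus strand), a receptor for the mTOR-associated proteins TTI1 and TEL2, was 18.2 and 18.7 CPM against 5.28 and 4.81 CPM (-1.86 ± 0.13, adjusted p = 3.16e-13). Fbxl20 (chr11:98082556-98150403, minus strand), which acts on the synaptic protein RIM1, showed the lowest fold change among the members, from 15.3 and 13.4 CPM to 3.74 and 2.97 CPM (-2.07 ± 0.16, adjusted p = 1.84e-12), or 4.2-fold lower. These genes thus sat near 13 to 19 CPM in control cells and at or under 5.28 CPM in every treated library.

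Fbxw5, a receptor for the mTOR pathway inhibitor TSC2, was 26.5 and 27.6 CPM in control cells and 12.7 and 10.4 CPM with TAK-243, and Fbxl15, a receptor for the BMP pathway ligase SMURF1, and Fbxw2 were also lower, by 0.67 and 0.55 on the log2 scale. The exception was Fbxw8 (chr5:118064965-118155464, minus strand), which assembles with the cullin CUL7 in place of CUL1. Its RNA rose from 108 and 114 CPM to 165 and 158 CPM (0.54 ± 0.04, edgeR quasi-likelihood adjusted p = 5.63e-13). Cul7 itself had a mean of 13.8 CPM in control cells and 42.4 CPM with TAK-243 (1.62 ± 0.09, adjusted p = 2.22e-15).

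Other receptors moved in both directions. Fbxo10 (chr4:45034247-45084604, minus strand), a receptor for the survival protein BCL2, was 21.3 and 19.7 CPM in control cells and 5.28 and 4.57 CPM with TAK-243. This was a change of -2.04 ± 0.14 on the log2 scale (edgeR quasi-likelihood adjusted p = 4.97e-14), or 4.12-fold lower. Fbxo30 (chr10:11281330-11298052, plus strand), known as MUSA1 from muscle atrophy, was 49.0 and 47.3 CPM against 80.4 and 87.8 CPM (0.80 ± 0.06, adjusted p = 1.43e-12). It was the 1 muscle-associated member of 3 tested that rose; Fbxo32, the atrogene atrogin-1, was 1.02 and 1.31 CPM without and 1.60 and 1.85 CPM with TAK-243 (adjusted p = 0.198), and the other, Fbxl22, gave 0.27 on the log2 scale (adjusted p = 0.54).

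Of the iron and mitochondrial receptors, Fbxl4 and Fbxo7, both linked to mitophagy, fell by 1.93 and 0.39 on the log2 scale (edgeR quasi-likelihood adjusted p = 1.1e-09 and 0.00458). Fbxl5, the iron-sensing receptor for IRP2, gave -0.07 ± 0.07 (adjusted p = 0.338). Among 5 tested receptors with chromatin, p53, BACH1 or related substrates, Fbxl17, Fbxo42 and Fbxo22 fell by 0.96, 0.36 and 0.28, while Fbxl19, which binds CpG islands, and Fbxo38, a receptor for PD-1, rose by 0.41 and 0.15. Fbxo2 and Fbxo6, which bind N-glycans, and their relative Fbxo44 gave 0.12, -0.36 and 0.22, and only Fbxo6 was called (adjusted p = 0.0059). Of the 3 tested members listed for germline expression, Fbxo24 rose by 0.88 (adjusted p = 0.0463), and Fbxw21 and Fbxo43 gave -0.35 and -0.18 without passing the test.

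The remaining called members, in no role list, were Fbxo8, Fbxl6, Fbxo48, Fbxl18 and Fbxo36, which fell, and Fbxw9, Fbxo34, Fbxl12, Fbxl8, Fbxo46, Fbxo33 and Fbxo3, which rose. Fbxo21, Fbxo25 and Fbxl7 were tested and not called. The range over all 50 tested members was -2.07 to 1.03 on the log2 scale, the highest being Fbxw9. Of the 14 tested Fbxl genes 7 fell and 3 rose, of the 28 Fbxo genes 14 fell and 8 rose, and of the 8 Fbxw genes 3 fell and 4 rose.

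**Figure D1:**
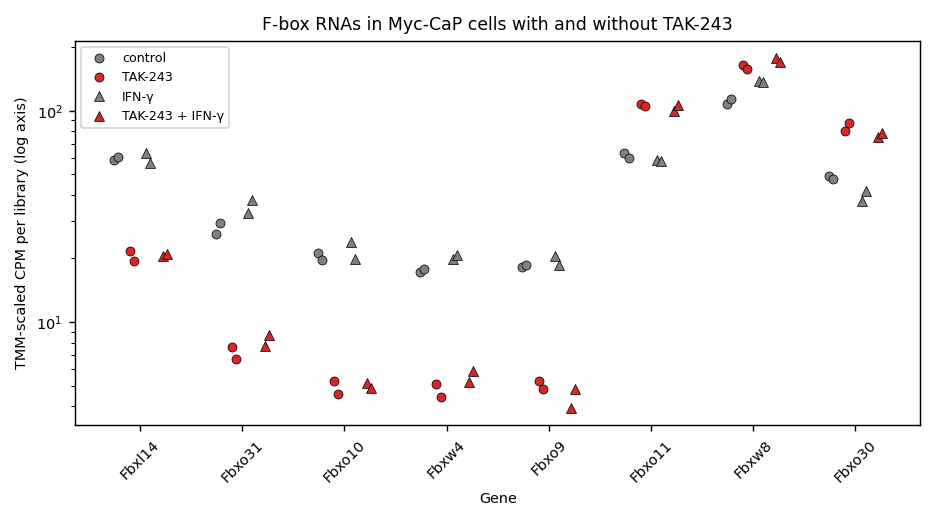
TMM-scaled CPM on a log axis for 8 F-box genes with the smallest adjusted p in Myc-CaP cells, 1 point per library, for control, TAK-243, IFN-γ and TAK-243 plus IFN-γ (2 libraries each). Fbxl14, Fbxo31, Fbxo10, Fbxw4 and Fbxo9 sit lower in all 4 TAK-243 libraries than in the 4 others, and Fbxo11, Fbxw8 and Fbxo30 sit higher.

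The components that F-box proteins plug into were also followed. Of 28 SCF core, CUL1 regulator and related genes tested in these cells, 16 rose and 10 fell with TAK-243. Over all genes tested, 66.3% were called, 32.3% higher and 34% lower. Skp1a, which encodes the SKP1 adaptor that every F-box binds, rose from a mean of 163.5 to 336.2 CPM (log2 fold change 1.04, edgeR quasi-likelihood adjusted p = 8.23e-22). Cul1 gave 0.09 (adjusted p = 0.0183). Among 6 F-box genes with other names, 2 rose and 3 fell, including Ccnf, which encodes cyclin F, at 0.26 and Skp2, the p27 receptor, at -0.16. TAK-243 cells also differed in marker lists of other kinds of cells. The sum over 6 fibroblast markers was 36.7 to 39.9 CPM with TAK-243 and 22.7 to 24.5 CPM in control cells, and 3 of the 6 were at 0 in each group. Keratinocyte markers (6 genes) summed to 6.63 to 7.46 CPM against 0.192 to 0.4995 CPM, and endothelial markers (6 genes) to 2.41 to 3.25 CPM against 0.0624 to 0.128 CPM. Myeloid markers (8 genes) were at 19.0 to 19.7 CPM against 15.1 to 16.2 CPM, and melanocyte markers (7 genes) were lower, at 12.6 to 13.1 CPM against 14.4 to 15.4 CPM. The sums of the T and NK cell list, the muscle list and the 5 epithelial genes overlapped between the groups. Within the epithelial sum, genes moved in opposite directions. Krt8 was 12.8 and 11.2 CPM with TAK-243 and 4.09 and 3.25 CPM in control cells, and Krt18 and Cdh1 were also higher. Hoxb13 was lower, at 5.58 and 4.89 CPM against 17.6 and 15.4 CPM, and Epcam was at or near 0 in both groups. The part of these shifts in the F-box values was not tested.

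With IFN-γ present in both arms, 39 of 50 members were again called, 15 higher (30%) and 24 lower (48%), against 68.2% of all genes, 32% higher and 36.2% lower. The median absolute change was 0.648 for the members and 0.571 over all genes. Fbxl14 was 63.4 and 56.6 CPM with IFN-γ alone and 20.5 and 21.1 CPM with both agents (-1.52 ± 0.08 on the log2 scale, edgeR quasi-likelihood adjusted p = 2.13e-16). Fbxo31 was 32.9 and 37.7 CPM against 7.67 and 8.64 CPM (-2.11 ± 0.11, adjusted p = 2.31e-16). Both groups of these receptors were separated by more than their spread. Fbxo9 gave -2.15, Fbxo10 -2.12 and Fbxw5 -1.34, and Fbxo11 and Fbxo30 gave 0.83 and 0.95. Fbxo32 was 0.99 and 0.83 CPM with IFN-γ alone and 2.46 and 2.07 CPM with both (1.31 ± 0.37, adjusted p = 0.00256). A difference between the TAK-243 effects with and without IFN-γ was called for 1 of 50 members (2%, against 2.38% of all genes), Fbxw8, whose rise was smaller with IFN-γ (0.33 against 0.54, interaction -0.21 ± 0.06, adjusted p = 0.0415). No interaction was called when any library other than control library 2 was left out.

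Cultured sgUba1 cells gave smaller changes against NC cells, over 52 tested members. Depleted and control lines were sublines grown from single cells, so depletion and subline cannot be told apart, here or in the sgUba1 tumors. Without IFN-γ, 12 members were higher and 6 lower in sgUba1 than in NC cells (edgeR quasi-likelihood test with Benjamini-Hochberg adjustment), or 34.6%, against 29.7% of all 15530 genes. In the 2 directions the shares were 23.1% higher and 11.5% lower, against 16.2% and 13.6% of all genes. The median absolute log2 fold change was 0.178 for the members and 0.206 over all genes. The number called fell to 11 without sgUba1 PBS library 1 and to 8 without library 2, where the lone sample is assumed to vary like the other groups. Beside these results, muscle markers summed to 21.4 to 21.9 CPM in sgUba1 and 26.3 to 27.97 CPM in NC cells without IFN-γ, and T and NK cell markers to 3.84 to 5.27 CPM against 5.603 to 7.78 CPM. Fibroblast markers were higher, at 16.6 to 18.6 CPM against 15.8 to 16.1 CPM, as were keratinocyte markers (0.282 to 0.564 CPM against 0.111 to 0.163 CPM) and the 5 epithelial genes (25.3 to 26.9 CPM against 21.5 to 23.3 CPM). Within the epithelial sum Krt8 was higher (10.7 and 9.05 CPM against 3.465 and 3.04 CPM) and Hoxb13 lower (14.8 and 15.3 CPM against 17.7 and 20.1 CPM). The part of these lists in the F-box values was not tested.

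The glycoprotein receptor Fbxo2 showed the largest increase among the called members, from 5.42 and 6.76 CPM in NC cells to 10.9 and 11.4 CPM in sgUba1 cells (0.87 ± 0.11, edgeR quasi-likelihood adjusted p = 0.00017). Fbxw4 was 15.7 and 15.03 CPM in NC and 22.6 and 22.8 CPM in sgUba1 cells (0.56 ± 0.07, adjusted p = 0.000151). Both sgUba1 libraries were above both NC libraries for either gene. The 2 iron and mitochondrial receptors Fbxl5 and Fbxo7 were called higher and Fbxl4 was not. Fbxl5 was 64.6 and 58.6 CPM against 77.6 and 82.8 CPM (0.38 ± 0.06, adjusted p = 0.000436), and Fbxo7 was 13.4 and 12.7 CPM against 17.3 and 18.5 CPM (0.45 ± 0.07, adjusted p = 0.000901).

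In the cell cycle and oncoprotein group, Fbxo4, Fbxw11 and Fbxo31 were higher by 0.56, 0.29 and 0.24 on the log2 scale and Fbxo5 was lower, at 54.3 and 54.3 CPM in NC and 48.2 and 48.0 CPM in sgUba1 cells (-0.18 ± 0.05, edgeR quasi-likelihood adjusted p = 0.0138). Fbxo33, a receptor for the Y-box protein YB-1, was 30.3 and 29.9 CPM against 39.9 and 36.6 CPM (0.35 ± 0.07, adjusted p = 0.00243), and Fbxl6 was 17.99 and 15.8 CPM against 12.8 and 12.6 CPM (-0.41 ± 0.09, adjusted p = 0.00581). The other members called were Fbxl17, Fbxo8, Fbxo34 and Fbxl22, higher, and Fbxo3, Fbxl18, Fbxl19 and Fbxo24, lower. Of the SCF core and related genes, 3 of 28 were higher and 6 lower, where 16.2% of all genes were higher and 13.6% lower. Among the lower were the COP9 signalosome subunits Cops6, Cops2 and Cops4, at -0.42, -0.35 and -0.29.

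With IFN-γ, 26 of 52 members differed between sgUba1 and NC cells, 13 higher and 13 lower, which is 50% in either direction and 25% in each, against 39.4%, 17% and 22.4% of all genes. Without sgUba1 IFN-γ library 1 the number was 16, and without NC IFN-γ library 1 it was 17. Fbxl19 was 49.9 and 46.3 CPM in NC and 30.3 and 30.7 CPM in sgUba1 cells, a change of -0.66 ± 0.07 on the log2 scale (edgeR quasi-likelihood adjusted p = 2.09e-05). Fbxl6 was 22.7 and 20.7 CPM against 11.7 and 12.9 CPM (-0.81 ± 0.09, adjusted p = 3.25e-05), and Fbxw8 was 139 and 142 CPM against 102 and 105 CPM (-0.44 ± 0.05, adjusted p = 7.61e-05). These 3 receptors were lower in each depleted library than in either control. Fbxl5 was 61.8 and 60.5 CPM in NC and 86.1 and 87.7 CPM in sgUba1 cells (0.51 ± 0.06, adjusted p = 3.25e-05), and all 3 iron and mitochondrial receptors were called higher. Fbxo21 and Fbxw5 were lower by 0.50 and 0.47, and Fbxw7 was higher by 0.36 (adjusted p = 0.00167).

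The difference between sgUba1 and NC cells changed with IFN-γ for 4 of 52 members (7.69%, against 4.64% of all genes), all 4 with a negative interaction. For Fbxl19 the log2 fold change was -0.21 without and -0.66 with IFN-γ (interaction -0.45 ± 0.09, edgeR quasi-likelihood adjusted p = 0.0311). The others were Fbxo21, whose libraries were 33.1 and 32.2 CPM in NC and 30.9 and 29.3 CPM in sgUba1 cells with PBS, and 40.1 and 39.0 CPM against 26.7 and 29.2 CPM with IFN-γ, together with Fbxw8 and Fbxo44. Fbxo44 was 9.77 and 11.4 CPM in NC and 11.1 and 10.9 CPM in sgUba1 cells with PBS, and 13.1 and 12.9 CPM against 9.40 and 9.38 CPM with IFN-γ. In both genes the sgUba1 libraries with IFN-γ stayed under both NC libraries with IFN-γ. These 4 calls rest on the full set of libraries, since 0 members were called when either NC IFN-γ, sgUba1 PBS or sgUba1 IFN-γ library was left out, and 8 members were called without either NC PBS library.

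IFN-γ on its own moved few members. In NC cells 5 of 52 were called, all higher (9.62%), against 3.88% of all genes, 3.03% higher and 0.856% lower. They were Fbxw5 (0.32 on the log2 scale, edgeR quasi-likelihood adjusted p = 0.0329), Fbxw8 (0.23), Fbxo21 (0.27), Fbxl6 (0.36) and Fbxw2 (0.22). Without NC IFN-γ library 1 or 2 there were 0 calls, and without NC PBS library 1 or 2 there were 10 and 8. In the TAK-243 experiment 11 of 50 were called between IFN-γ and control cells (22%, against 29% of all genes), 9 higher and 2 lower, which is 18% and 4% against 19.6% and 9.39% of all genes. On TPM (expression scaled for transcript length and depth) in place of counts this split was 0 higher and 5 lower, and by edgeR 3 members were called without control library 2 or IFN-γ library 1, 6 without IFN-γ library 2 and 7 without control library 1. Fbxw8 was 108 and 114 CPM in control and 138 and 137 CPM in IFN-γ cells (0.31 ± 0.04, adjusted p = 7.81e-07). Fbxo30 fell from 49.0 and 47.3 CPM to 37.5 and 41.6 CPM (-0.28 ± 0.07, adjusted p = 0.00205). On counts, Fbxw8, Fbxo21 and Fbxw5 were higher in both IFN-γ experiments. In the TAK-243 experiment the mean TPM of Fbxo21 was 10.3 in control and 10.3 in IFN-γ cells. For Fbxw5 it was 19.4 against 19.7 TPM, and for Fbxw8 33.4 against 35.3 TPM.

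The 2 cell experiments share no libraries, and the members were compared between them without IFN-γ. Of the 50 members tested in both, 15 were called in both, and 3593 of 14245 genes were. Among the 15, 6 were higher with sgUba1 and lower with TAK-243 (40%, against 31.1% of the genes called in both), namely Fbxw4, Fbxo31, Fbxo4, Fbxo7, Fbxo8 and Fbxl17. A further 3 were higher in both, Fbxo33, Fbxo34 and Fbxw11 (20% against 23.5%), and 3 were lower in both, Fbxo5, Fbxl6 and Fbxl18 (20% against 24.9%). Fbxl19, Fbxo3 and Fbxo24 were lower with sgUba1 and higher with TAK-243 (20% against 20.5%). Fbxw4 gives the plainest contrast, with 22.6 and 22.8 CPM in sgUba1 against 15.7 and 15.03 CPM in NC cells, and 5.09 and 4.41 CPM with TAK-243 against 17.3 and 17.7 CPM in control cells. With IFN-γ, 22 members were called in both, of which 8 were higher with sgUba1 and lower with TAK-243 (36.4% against 22.3%), 5 the reverse (22.7% against 22.1%), 3 higher in both (13.6% against 18.3%) and 6 lower in both (27.3% against 37.3%). The lower-with-both gene Fbxo5 was thus below its control under depletion and under inhibition.

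**Figure D2:**
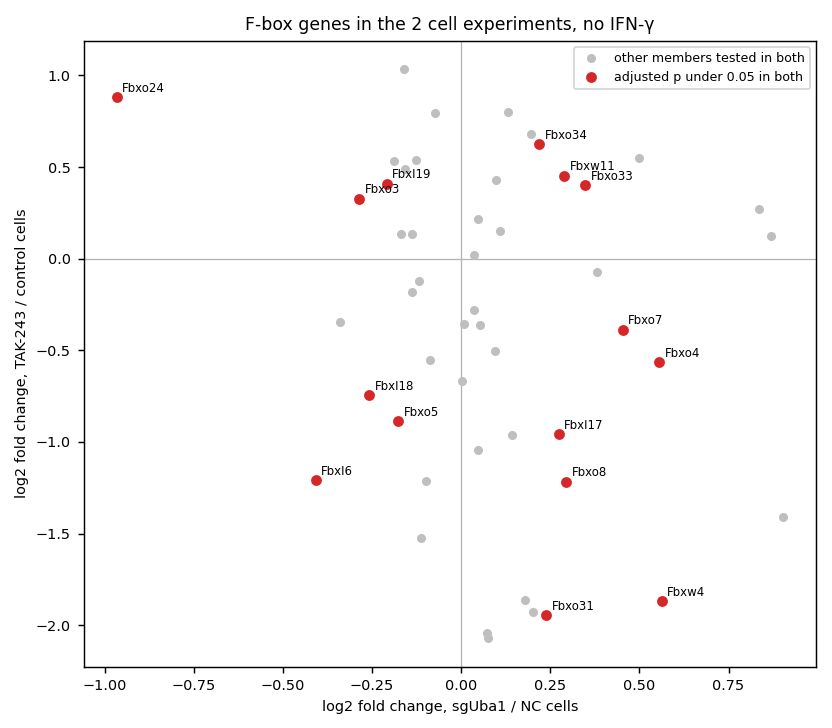
log2 fold change of the 50 F-box genes tested in both cell experiments without IFN-γ, sgUba1 over NC on the x axis and TAK-243 over control on the y axis, 1 point per gene. The 15 genes called in both are in red; 6 of them, among them Fbxw4 and Fbxo31, lie to the right of 0 and below 0.

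In tumors, where RNA of the cancer cells is mixed with that of the host, fewer cells of a type and less RNA per cell cannot be told apart. Of the 4 tumor comparisons, Myc-CaP sgUba1 against sgNC alone held called members, 3 of 54 tested and all higher, or 5.56%, against 3.04% of all genes in either direction and 1.15% higher. The median absolute log2 fold change was 0.154 for the members and 0.251 over all genes. Fbxo36 (chr1:84839841-84900487, plus strand) was 1.20, 1.31 and 1.13 CPM in sgNC tumors, and 2.59, 2.70, 2.0, 4.18, 3.31, 2.94 and 3.94 CPM in sgUba1 tumors 1 to 7 (1.35 ± 0.26, edgeR quasi-likelihood adjusted p = 0.0318). Fbxo10 was 35.8, 27.7 and 27.1 CPM in sgNC tumors and 44.6, 44.9, 41.2, 63.5, 61.2, 58.0 and 55.6 CPM in sgUba1 tumors (0.80 ± 0.17, adjusted p = 0.0369). Fbxw17 (chr13:50417864-50433780, plus strand) was 0.17, 0.40 and 0.40 CPM in sgNC tumors and 0.89, 0.87, 1.44, 0.80, 0.99, 0.93 and 1.03 CPM in sgUba1 tumors (1.59 ± 0.34, adjusted p = 0.0401). Its sgNC values were near the floor, since 3 counts give 0.0789 to 0.347 CPM over the Myc-CaP libraries. In every cultured Myc-CaP library Fbxw17 was at 0 TPM.

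All 7 sgUba1 tumors were above all 3 sgNC tumors for these genes, including tumors 4 to 7, in which Uba1 RNA was not lower. The 4 tumors with the higher Uba1 RNA also had the higher Fbxo10 and Fbxo36 values. Without tumors 4 to 7, 0 members were called by edgeR, and 0 were called without sgNC tumor 2 or 3 or without any 1 of sgUba1 tumors 4, 5, 6 and 7, and 1 without sgNC tumor 1 or sgUba1 tumor 1. Myeloid markers summed to 312 to 506 CPM over 8 genes in sgUba1 tumors and 174 to 329 CPM in sgNC tumors, with none of the 8 at 0 in either group, and fibroblast markers to 998 to 2883 CPM against 754 to 1410 CPM. The 9 T and NK cell markers did not overlap, at 13.0 to 30.3 CPM in sgUba1 and 10.2 to 12.3 CPM in sgNC tumors, with none at 0 in all libraries of either group. The part of these lists in the 3 results was not tested. Kdm2a, an F-box gene with another name that encodes a histone demethylase, was lower by 0.66 on the log2 scale (adjusted p = 0.0366).

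**Figure D3:**
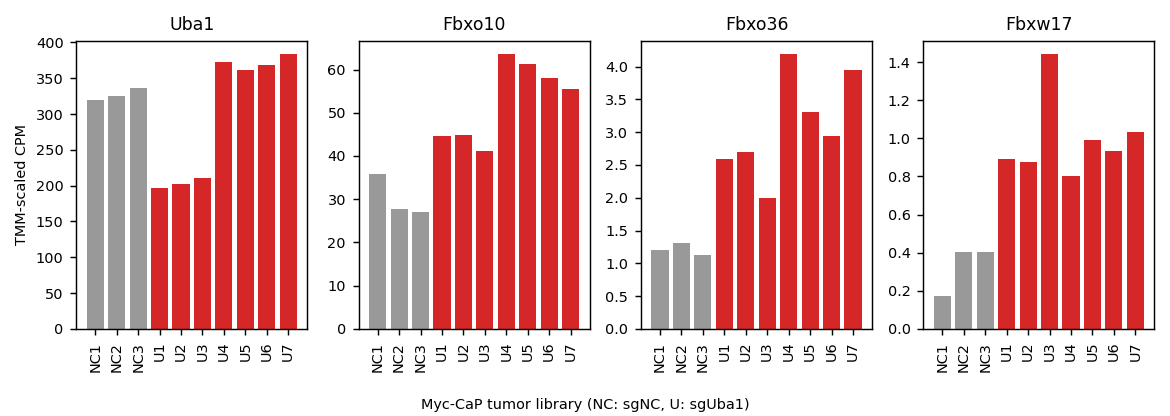
Uba1 and the 3 F-box genes called between Myc-CaP sgUba1 and sgNC tumors, as TMM-scaled CPM with 1 bar per tumor (NC, sgNC tumors 1 to 3; U, sgUba1 tumors 1 to 7). Uba1 is lower in U1 to U3 and not in U4 to U7, whereas the F-box genes are above the 3 sgNC tumors in every sgUba1 tumor.

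In B16-BL6 tumors 0 of 64 tested members were called with edgeR, against 0.724% of all genes, with 8 at an unadjusted p under 0.05. DESeq2 called 1, and limma-voom 0. The members' log2 fold changes ran from -0.53 to 0.74, with a median absolute change of 0.144 against 0.135 over all genes. The smallest p belonged to Fbxl19, at 65.6, 69.7 and 66.3 CPM in sgNC and 52.2, 51.8, 57.5 and 61.2 CPM in sgUba1 tumors (-0.27 ± 0.07, edgeR quasi-likelihood adjusted p = 0.138). The groups did not overlap, but the difference did not pass the adjusted threshold. Fbxl2 and Fbxo31 followed, at 0.30 ± 0.09 and -0.53 ± 0.17 (adjusted p = 0.178 and 0.188). Myeloid markers summed to 146 to 178 CPM in sgUba1 and 87.8 to 144 CPM in sgNC tumors.

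With Uba1 OE, 0 of 51 tested members were called with edgeR, against 0.0269% of all genes, with 6 at an unadjusted p under 0.05; DESeq2 called 1 and limma-voom 0. Fbxl5 was 76.7, 78.5 and 78.9 CPM with EV and 113, 99.0, 101 and 95.7 CPM with Uba1 OE (0.39 ± 0.08, edgeR quasi-likelihood adjusted p = 0.123). Fbxw7 was 71.6, 59.2 and 64.2 CPM against 35.1, 49.1, 47.4 and 52.4 CPM (-0.50 ± 0.14, adjusted p = 0.157). Neither pair of groups overlapped, and neither difference passed the adjusted threshold. Fbxw5 was 42.4, 42.8 and 39.4 CPM against 29.3, 33.3, 34.7 and 37.9 CPM (adjusted p = 0.222). The 9 T and NK cell markers summed to 5.25 to 10.7 CPM in Uba1 OE tumors and 16.8 to 22.4 CPM with EV, without overlap, and 1 of the 9 was at 0 in all Uba1 OE tumors. Muscle markers (10 genes) ran from 33.0 to 672 CPM and from 34.0 to 42.6 CPM, and overlapped. The part of these lists in the Fbxl5 and Fbxw7 values was not tested.

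In tumors treated with TAK-243, 0 of 55 tested members were called with edgeR, DESeq2 or limma-voom, against 0.145% of all genes with edgeR, and 8 were at an unadjusted p under 0.05. Fbxo5 ranged from 9.90 to 21.7 CPM with a median of 15.2 CPM in the 6 vehicle tumors, and was 4.31, 12.7, 11.9, 3.69 and 10.8 CPM in the 5 TAK-243 tumors (-0.88 ± 0.33, edgeR quasi-likelihood adjusted p = 0.247). The ranges overlapped, with TAK-243 tumors 1 and 4 standing lowest. Fbxo48 and Fbxl22 gave -0.65 ± 0.22 and 0.77 ± 0.29 (adjusted p = 0.211 and 0.259). Receptors that fell in treated cells were not lower here by the test. Fbxo31 gave 0.16 (adjusted p = 0.347) and Fbxo10 0.15. Doses and times in mice and in culture differ, and the 2 effects were not tested against each other. TAK-243 tumor 1 was the only Myc-CaP tumor with keratinocyte marker RNA above 1 CPM, at a sum of 79.8 CPM over 6 genes.

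**Figure D4:**
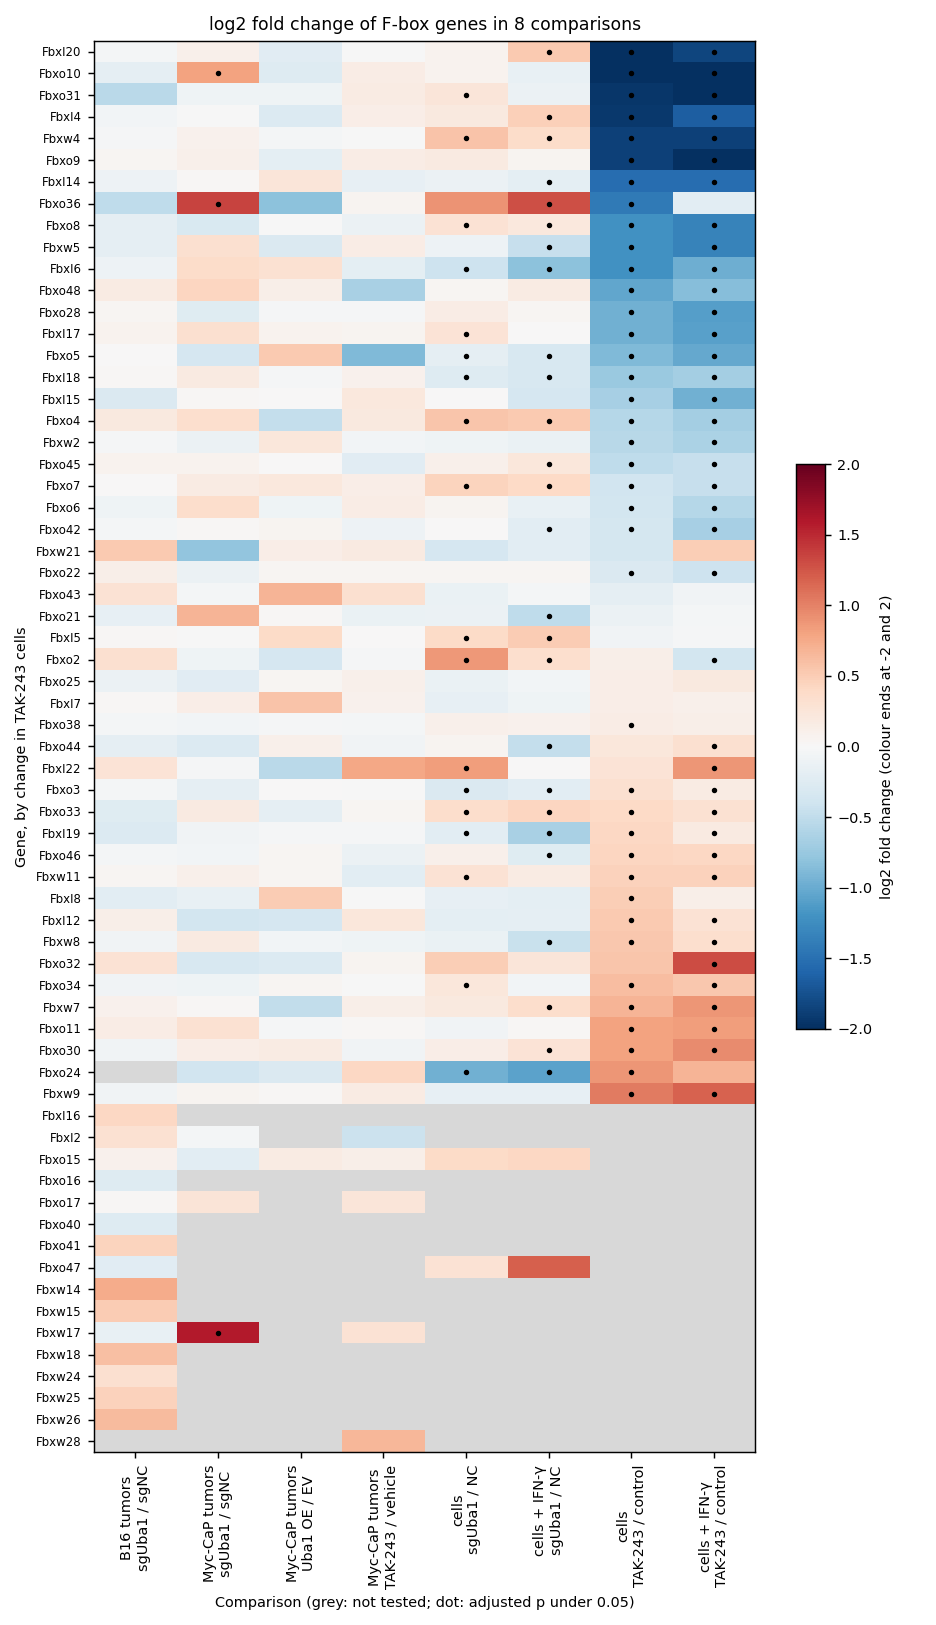
log2 fold change of the tested F-box genes (rows, ordered by the change in TAK-243 cells) in 8 comparisons of tumors and cells (columns), with grey for not tested and a dot for an adjusted p under 0.05. Dots fill the TAK-243 cell columns (39 genes each), are fewer for sgUba1 cells (18 and 26), and in tumors appear for 3 genes only.

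The level of each receptor was read on the TPM scale, which corrects for transcript length. Among the highest medians over the 51 libraries were Fbxw4 (44.4 TPM), Fbxl5 (44.2 TPM), Fbxw11 (43.3 TPM), Fbxo22 (41.5 TPM) and Fbxw8 (36.8 TPM), followed by Fbxl20, Fbxo11, Fbxo6 and Fbxw5 (33.4, 30.1, 29.0 and 28.2 TPM). Fbxw4 ranged from 6.05 to 30.7 TPM in cells and from 34.1 to 76.9 TPM in tumors, so the order among the first members lay within the spread over libraries.

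**Figure D5:**
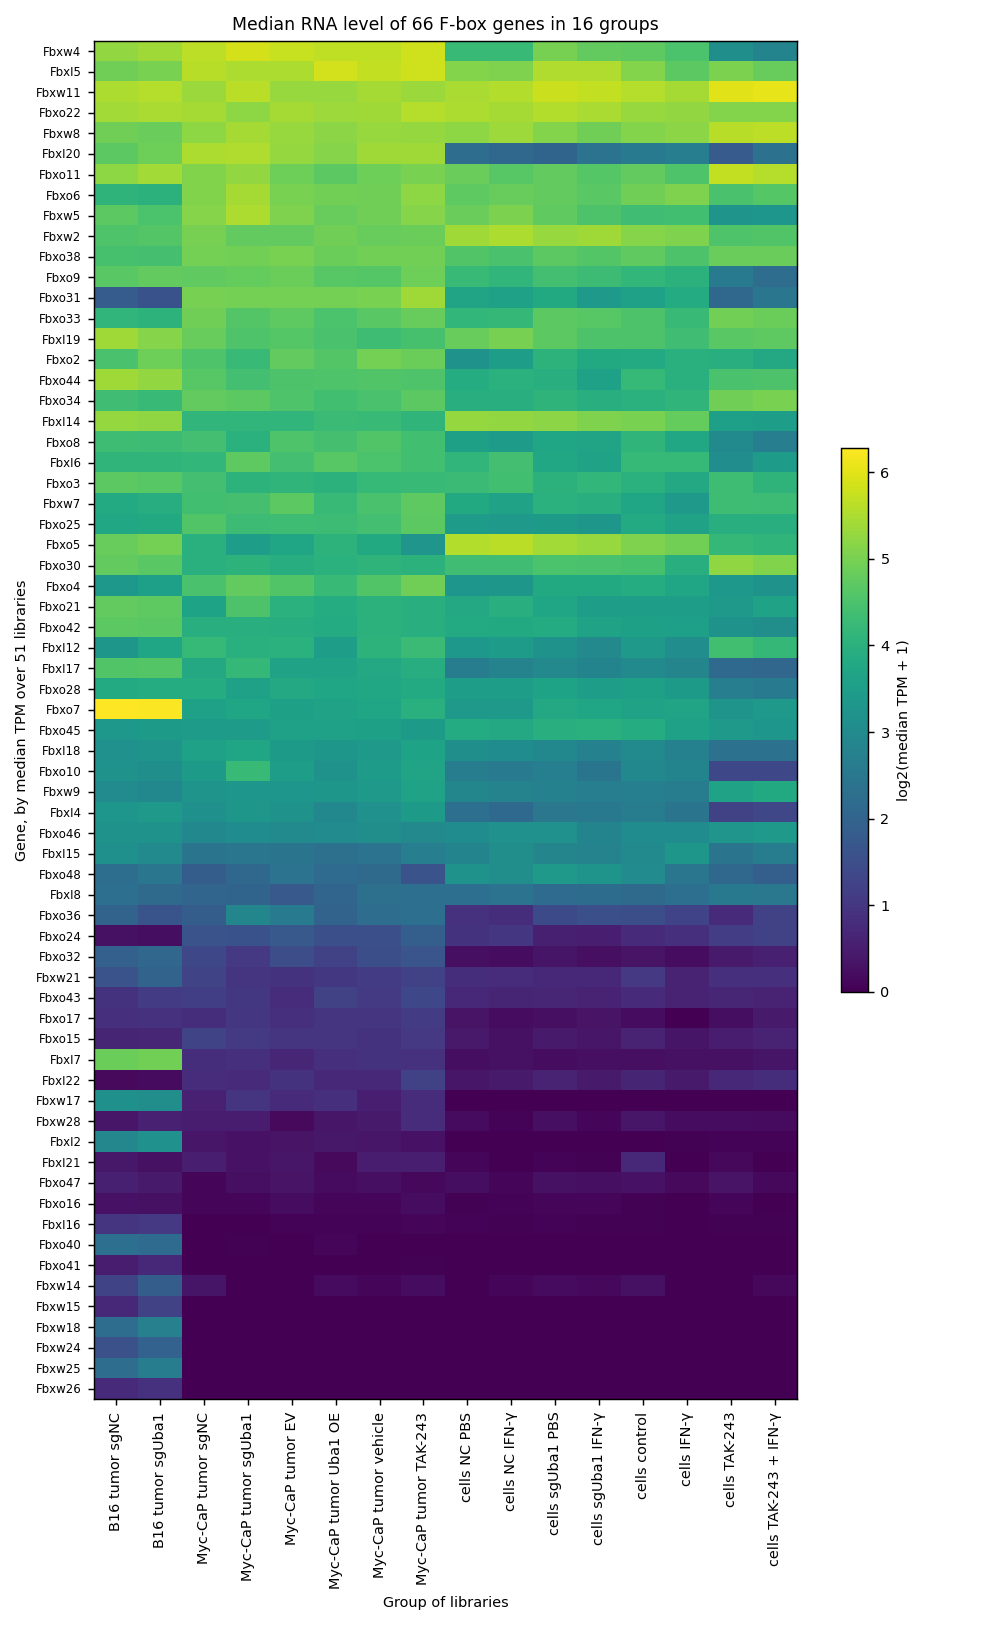
Median TPM of 66 of the F-box genes in the 16 groups, as log2(median TPM + 1), with genes ordered by their median over 51 libraries. Fbxo7, Fbxl7, Fbxl2, Fbxw17 and a set of Fbxw genes at the bottom are brighter in the B16-BL6 columns, and Fbxo31 is darker there.

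Between the models, 24 of 67 members (35.8%) did not overlap between the 7 B16-BL6 and the 28 Myc-CaP tumors, 16 above and 8 below in B16-BL6, against 30.3% of the 19859 genes with enough counts. Over all genes 6014 did not overlap, and 3216 of these were above in B16-BL6. Of the 16 above, 6 (Fbxl16, Fbxo41, Fbxw15, Fbxw18, Fbxw24 and Fbxw25) reached the count minimum through the B16-BL6 libraries alone, so that the rule itself fixed their direction, as it did for 15.6% of the 3216 genes that were above. The models were handled as separate experiments, in hosts of different strain and sex. Model, host and experiment therefore cannot be told apart, and no test was made. Fbxo7 (chr10:86021972-86051873, plus strand) ranged from 69.5 to 89.7 TPM (median 76.1) in B16-BL6 and from 9.80 to 16.7 TPM (median 12.0) in Myc-CaP tumors, 6.36-fold higher by the medians. Fbxo31 was the reverse, at 1.20 to 2.87 TPM (median 2.46) in B16-BL6 and 18.9 to 43.4 TPM (median 31.7) in Myc-CaP tumors. Fbxl14 had a median of 37.3 TPM in B16-BL6 and 17.3 TPM in Myc-CaP tumors. Of 2 genes chosen after their values were seen, Fbxl7 (chr15:26540459-26895580, minus strand) had medians of 28.4 and 0.771 TPM and Fbxl2 of 7.33 and 0.287 TPM. Fbxo40, a muscle receptor for IRS1, was at 2.71 to 4.87 TPM in B16-BL6 and at 0 to 0.458 TPM in Myc-CaP tumors. Muscle markers summed to 7.31 to 388 CPM in B16-BL6 and Fbxo40 overlapped between its sgNC and sgUba1 groups; the part of muscle RNA was not tested.

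Cells in culture and Myc-CaP tumors also differed in a few receptors. Of 67 members, 11 were lower in all 16 cell libraries than in any of the 28 tumors and 0 were higher (16.4%, against 15% of genes in either direction). Most genes that did not overlap went the same way, with 2602 of 2983 lower in cells. Fbxl20 ranged from 2.37 to 5.84 TPM (median 3.72) in cells and from 27.5 to 58.7 TPM (median 40.7) in tumors, 10.9-fold higher in tumors by the medians. Fbxo32 had medians of 0.227 TPM in cells and 1.76 TPM in tumors, Fbxo31 of 10.9 and 31.7 TPM and Fbxw4 of 20.8 and 53.7 TPM. Others were Fbxl4, Fbxl7, Fbxl17, Fbxl18, Fbxo10 and Fbxo17. Tumors contain host cells and the cells were prepared separately, so source and preparation cannot be told apart.

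Of 8 Fbxw members in a cluster on chromosome 9, 6 were nearly confined to B16-BL6 among these libraries, whereas Fbxw21 and Fbxw28 were not. The cluster is a tandem family known for oocyte expression, and the set of 6 (Fbxw14, Fbxw15, Fbxw18, Fbxw24, Fbxw25 and Fbxw26) was chosen after its values were seen. All 6 reached the count minimum through the B16-BL6 libraries alone, so the rule itself fixed their height there, and it is a description. The upstream windows of 2 of them, and of their neighbour Fbxw28, whose level overlapped between the models, are printed to show how alike the copies are, at chr9:109702701-109702950 for Fbxw18, chr9:109664653-109664902 for Fbxw25 and chr9:109339660-109339909 for Fbxw28, all on the minus strand (RefSeq, GRCm38.p6). Capitals mark the longest run of bases that all 8 members of the cluster share.
Fbxw18: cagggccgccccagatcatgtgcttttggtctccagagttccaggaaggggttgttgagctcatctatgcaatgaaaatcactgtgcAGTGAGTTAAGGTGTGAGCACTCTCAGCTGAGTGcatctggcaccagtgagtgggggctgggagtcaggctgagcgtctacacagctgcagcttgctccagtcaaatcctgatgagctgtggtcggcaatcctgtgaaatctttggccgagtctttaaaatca
Fbxw25: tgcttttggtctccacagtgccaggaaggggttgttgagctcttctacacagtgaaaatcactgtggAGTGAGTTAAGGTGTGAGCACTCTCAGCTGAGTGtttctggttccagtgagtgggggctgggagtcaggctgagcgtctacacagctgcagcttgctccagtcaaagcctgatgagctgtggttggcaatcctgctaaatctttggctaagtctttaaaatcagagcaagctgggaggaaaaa
Fbxw28: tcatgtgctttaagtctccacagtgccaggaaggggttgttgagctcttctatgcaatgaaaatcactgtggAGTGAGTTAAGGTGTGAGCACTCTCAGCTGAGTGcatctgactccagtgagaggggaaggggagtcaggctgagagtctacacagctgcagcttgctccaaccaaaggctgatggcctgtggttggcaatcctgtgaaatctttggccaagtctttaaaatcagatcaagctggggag
The shared run is 34 bases long and occurs in 9 of the 27024 windows, and beyond these 8 no other member holds it. Over the 28 pairs of the 8 members, identity was between 78.9% and 96.4%, with a median of 89%. These windows lie before the RefSeq starts, and the transcribed sequences were not compared. Reads from tandem copies may be split between them, so single genes are taken as uncertain and the sum of the 6 is given.

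The summed level of the 6 genes was 9.10 to 22.4 TPM (median 14.3) in the 7 B16-BL6 tumors, from 235 to 568 counts per library. In Myc-CaP tumors it was 0 to 0.994 TPM from 0 to 5 counts, and in Myc-CaP cells 0 to 0.441 TPM from 0 to 3 counts. Fbxw18 had 77 to 197 counts in each B16-BL6 library and 0 in all 44 Myc-CaP libraries, where a count of 0 allows up to 0.0789 to 0.347 CPM (3 counts, counting error only). Within B16-BL6, Fbxw18 was 2.55, 4.22 and 3.41 CPM in sgNC tumors and 5.67, 4.43, 4.0 and 6.42 CPM in sgUba1 tumors (0.59 ± 0.22, edgeR quasi-likelihood adjusted p = 0.229), and the groups overlapped. Fbxw28 of the same cluster had a median of 0.420 TPM in B16-BL6 tumors, within the Myc-CaP range. Fbxw21, also of the cluster, was at 1.45 to 3.32 TPM in B16-BL6 and 0.673 to 2.18 TPM in Myc-CaP tumors, which overlapped. In Myc-CaP cells Fbxw21 was at 0.459 to 1.25 TPM.

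Some members share exonic bases with another annotated gene, among them Fbxl12 with Ubl5 (1890 bases), Fbxw8 with Gm9754 (1845 bases), Fbxw4 with Gm17018 (676 bases) and Fbxl20 with Gm11632 (674 bases). The sources used here do not state whether counting used strand, so reads from such partners may not be told apart.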

How the data were processed

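RNA-seq of 51 libraries (35 tumors and 16 cell samples) was analysed. Per the labels and the submitters' processing notes, reads were quantified with kallisto against mm10 (version not given); the annotation and strand setting are not given in the sources used here. The labels name poly-A capture and the study's methods ribosomal RNA removal. The authors deposited expected counts, which are estimated and of which many are not whole, and TPM, which the authors scaled for transcript length and depth, for 40077 genes. The tests were planned for whole counts, so expected counts were rounded. Columns of no sample numbered 0.

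The members, the role lists and the comparisons were chosen with earlier results of these data known. Groups followed the labels. Each tumor experiment was fitted alone, and the 8 libraries of each cell experiment together, with edgeR 4.0.16 in R 4.3.3 (filterByExpr, TMM scaling, quasi-likelihood test, two-sided, prior count 0.125) over all genes, with Benjamini-Hochberg adjustment and a threshold of 0.05. Alternatives were DESeq2 1.42.0, limma-voom and limma on log2(TPM + 1) with limma 3.58.1, RLE scaling, no filter on low counts, a replicate block and leaving out each library. Scripts were tested on simulated data. Genes named were role-list members, up to 8 called members per comparison by adjusted p (or the 3 smallest p where fewer than 3 were called), the 10 highest by median TPM, members called in both cell experiments, and up to 6 called SCF or other F-box genes. Replicates of a group differed by more than sampling noise in all 75 pairs, with chi-square statistics at 1.84 to 99.2 times their degrees of freedom, so no library was merged. In cells the NC PBS pair stood at 18.1 times and the other pairs at 1.84 to 5.81 times. Myc-CaP sgUba1 tumors 1 to 3 against 4 to 7 gave 61.3 to 86.9 times, and pairs within either set 9.71 to 22.7 times. Correlations between the deviations of same-numbered samples ran from -0.179 to 0.315, and the main fit has no block. Of the genes, 39867 had positions in GENCODE on GRCm38 by gene ID, and 51 of 67 members had a RefSeq upstream window by symbol. Values of 1 member and of some marker genes are not reported here, though counts over the members include it.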

Additional observations from a re-analysis of the deposited data

Results flagged for a closer look

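Fbxw17 in Myc-CaP sgUba1 tumor 3 stood apart from the other 6 sgUba1 tumors, at 1.44 CPM against 0.805 to 1.03 CPM. It was the 1 value that did so among 15 sets examined, each being 1 named gene in 1 of the 5 tumor groups of 4 to 7 samples (3 genes in each), and chance alone flags about 1 in 20 such sets.

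The change with Uba1 depletion differed between cells with and without IFN-γ for 4 members, by a test of the interaction (edgeR quasi-likelihood test, Benjamini-Hochberg adjusted over all genes). The interaction was -0.45 on the log2 scale for Fbxl19 (adjusted p = 0.0311), -0.38 for Fbxo21 (adjusted p = 0.0424), -0.32 for Fbxw8 (adjusted p = 0.0442) and -0.52 for Fbxo44 (adjusted p = 0.0458). Fbxw8 was also called for the interaction of TAK-243 with IFN-γ, at -0.21 (adjusted p = 0.0415).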

How the results depend on the processing

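With TAK-243 tumors, 0 members were called in every fit. With TAK-243 in cells, 39 were called with and without IFN-γ, and 34 to 37 without and 33 to 37 with IFN-γ when 1 library was left out. The call counts of the remaining comparisons moved by over 1.5 times, or between 0 and 1, under some settings. DESeq2 gave 1 member in B16-BL6 tumors and 1 with Uba1 OE (0 in each with edgeR), 11 in sgUba1 cells (18), 2 for IFN-γ in NC cells (5), 2 for the sgUba1 interaction (4), 3 for IFN-γ against control (11) and 0 for the TAK-243 interaction (1). RLE scaling gave 0, 1 and 0 for IFN-γ in NC cells and the 2 interactions, and limma-voom 1 in Myc-CaP sgUba1 tumors (3) and 0 for the TAK-243 interaction. On log2(TPM + 1) the counts were 10 and 16 for sgUba1 cells without and with IFN-γ (18 and 26), 0 for IFN-γ in NC cells, 5 for IFN-γ against control, and 0 for both interactions, and Fbxl19 turned from 0.28 to -0.18 for IFN-γ against control. Without a filter on low counts the sgUba1 interaction had 8 calls. Causes were not tested.

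Leaving out 1 library at a time gave 0 to 1 members in B16-BL6 tumors (1 without sgUba1 tumor 4), 0 to 3 in Myc-CaP sgUba1 tumors, 0 to 1 with Uba1 OE (1 without OE tumor 1) and 0 in TAK-243 tumors. In cells it gave 8 to 17 for sgUba1 without and 16 to 20 with IFN-γ, 0 to 10 for IFN-γ in NC cells, 0 to 8 for the sgUba1 interaction, 3 to 7 for IFN-γ against control, and 0 to 1 for the TAK-243 interaction. Omitting sgUba1 tumors 4 to 7, a setting chosen after seeing the data, gave 0 in Myc-CaP tumors. These fits have fewer samples.

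The labels do not say whether same-numbered samples were paired, and correlations of their deviations ran from -0.179 to 0.315. The replicate block was fitted only to samples whose number occurs in every group of the experiment. Myc-CaP sgUba1 tumors 4 to 7 were thereby left out. In that fit Myc-CaP sgUba1 tumors had 0 members called, with Fbxo36, Fbxo10 and Fbxw17 at 0.99, 0.53 and 1.70 on the log2 scale. The block and the omission of those tumors cannot be told apart. The block fit moved no other count by over 1.5 times.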
